A study of Canis lupus familiaris with 13 samples.

Results

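The fatty acid uptake and oxidation genes described here are LPL, CD36, ACSL3, MLYCD, DECR1, ACAD9, ACAT1 and BDH1, measured in dog heart. They were found as every probe set whose annotated gene symbol was 1 of these names, which gave 17 of the 23836 probe sets on the array, for 8 of the 6540 genes with a probe set. A probe set is a group of short probes on the array that together give 1 signal for a transcript. Of the 17 probe sets, 15 passed the filter on low signal and were tested among 14302, so that each of the 8 genes had at least 1 tested probe set among the 5242 genes tested.

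Heart tissue RNA from 13 dogs, each named in its sample's title, was measured on an Affymetrix canine expression array, with 1 array each. By the labels, dilated cardiomyopathy, a weakening of widened ventricles, was present in 3 Dobermans, named K, L and R, and in 4 Boxers, named 1 to 4. A further 3 samples were from mongrels labelled as pacing (LV01, LV02 and LV04), and 3 were from control mongrels (P1, P4 and P9). Sustained fast pacing through an electrode can bring on heart failure, but the labels name neither its rate nor its length, nor any dog's age or the part of the heart taken. Both affected breeds were set against mongrels, with no healthy dog of either breed, so that breed and disease cannot be told apart against the controls. The p-values set differences of group means against a spread between samples that is pooled over all groups in the fit.

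The heart covers most of its energy need by burning fatty acids. Lipoprotein lipase releases them from circulating lipoproteins at the capillary wall, CD36 helps to carry them into the muscle cell, and acyl-CoA synthetases attach them to coenzyme A. Their entry into mitochondria is held back by malonyl-CoA, and inside, beta-oxidation cuts them to acetyl-CoA, which the mitochondria also obtain from ketone bodies. No sequences of these genes were used here.

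The arrays of Dobermans L and R stood apart. The GAPDH 3'/5' ratio, which rises when RNA is broken, reached 2.10 in L and 3.62 in R, while K had 1.08 and the other 10 arrays 0.967 to 1.09. The actin 3'/5' ratio, on the log2 scale, set apart R alone, at -0.085. It was -1.92 in L, -1.90 in K, -1.97 to -1.56 in Boxers and -3.17 to -2.20 in mongrels. Arrays of 1 group correlated on average at 0.866 to 0.886 among Dobermans and at 0.950 to 0.965 in the other groups. With the controls, the paced arrays correlated on average at 0.885 to 0.893, Boxers at 0.949 to 0.956, L at 0.830, R at 0.859 and K at 0.940. The median signal was 208 to 219 in paced arrays, 234 in L and 220 in R, against 142.5 to 146 in controls. It was 160 in K and 132 to 146 in Boxers. Pacing and this difference of the paced arrays from the controls cannot be told apart. The median SD over genes, on the log2 scale, was 0.46 in Dobermans, 0.19 in Boxers, 0.20 in paced mongrels and 0.20 in controls. The SE and p-values given with all 3 Dobermans pool the spread of all groups. They thus understate the spread of the Dobermans where it is wider. For CD36 the SD was 2.95 in Dobermans and 0.10 in controls. Doberman calls made with all 3 dogs are therefore followed by the result with K as the only Doberman, where the spread comes from the other groups and K is assumed to vary like them. Of 14 cardiomyocyte markers, 13 were measured, none was at 0, and their signals summed to 281300 to 530200 in Dobermans, 271300 to 300800 in Boxers, 229300 to 258100 in paced mongrels and 262600 to 380800 in controls. Against the controls, 2 of these 13 markers fell in the Dobermans, beside 14.0% of all tested genes, and none rose, beside 11.9%. These 2 were RYR2, the calcium release channel, and CKMT2, the mitochondrial creatine kinase. Their log2 changes were -1.10 and -0.97, and with K as the only Doberman -0.77 and -0.35.

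**Figure D1:**
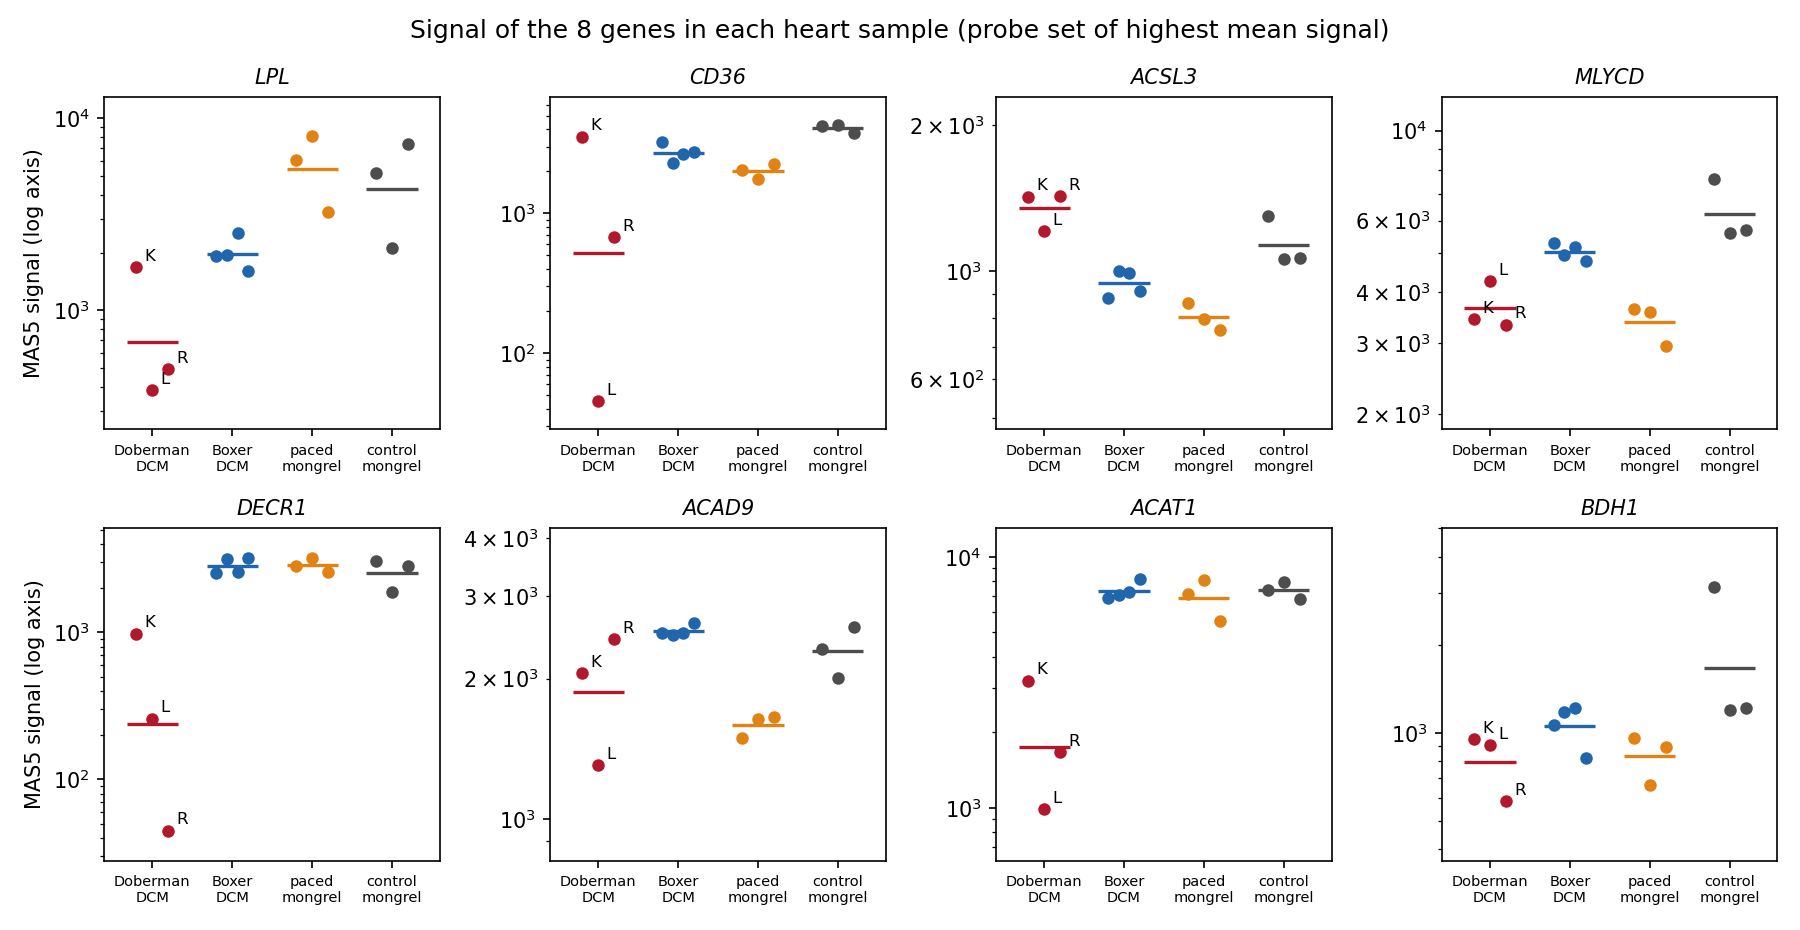
MAS5 signal (log axis) of the probe set of highest mean signal of each gene in each of the 13 heart samples, with points for samples and lines for the group mean taken on the log2(signal + 16) scale. Dobermans L and R lie below every other sample for CD36, LPL and DECR1, whereas all samples lie between 1307 and 2628 for ACAD9 and between 758 and 1429 for ACSL3.

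In Dobermans, LPL, CD36, MLYCD, DECR1, ACAT1 and BDH1 fell against the controls at an adjusted p under 0.05 in limma, 6 of the 8 genes. Of all tested genes, 14.0% fell and 11.9% rose. The 8 genes were chosen with earlier results of these data known, so these shares are only a description. DECR1 fell the most, 9.99-fold. In paced mongrels MLYCD alone fell, 1 of 8 genes against 4.04% of all tested genes, and in Boxers 0 of 8 passed. The 3 Dobermans differed widely among themselves for several of these genes, and with K as the only Doberman 3 of the 6 falls, those of MLYCD, DECR1 and ACAT1, passed.

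Lipoprotein lipase, LPL, had signals of 1682, 384 and 494 in Dobermans K, L and R, 1909, 1950.1, 2519 and 1612 in Boxers 1 to 4, 6083, 8129 and 3263 in paced mongrels LV01, LV02 and LV04, and 5190.5, 2102 and 7338 in control mongrels P1, P4 and P9. All 3 Dobermans lay below all controls, and K lay within the range of the Boxers. Control P4 had less than the other two controls and lay within the range of the Boxers. The log2 change of LPL in Dobermans against controls was -2.62 ± 0.52 (n = 3 and 3, SE from the spread pooled over all groups). This was a 6.16-fold fall with an adjusted p of 0.00848 in limma. With K as the only Doberman the change was -1.35, with an adjusted p of 0.239 in limma. A second probe set, 1583007_at, had 371, 86.3 and 116 in the Dobermans against 1910.0, 532 and 3390.5 in the controls, a change of -3.14 ± 0.59 (adjusted p = 0.00727 in limma), and with K alone of -1.98 (adjusted p = 0.183). Probe set 1583006_at was under the filter and had 110 to 212 in the Dobermans, 87.3 to 145 in the Boxers, 35.1 to 53.8 in the paced mongrels and 123 to 182 in the controls; it shares its source transcript with 1583007_at but did not share its order of groups.

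CD36, the fatty acid translocase of the cell surface, varied more among the Dobermans than any other of these genes. Its signals were 3551, 45.6 and 679 in Dobermans K, L and R, 3236, 2303, 2661 and 2773 in Boxers 1 to 4, 2048, 1774 and 2245 in the paced mongrels and 4225, 4295 and 3776 in the controls. The highest Doberman was 77.9 times the lowest, whereas the highest control was 1.14 times the lowest. Every Doberman, Boxer and paced sample lay below every control. CD36 changed by -2.94 ± 0.93 in Dobermans against controls, 7.69-fold lower with an adjusted p of 0.0365 in limma, and with K as the only Doberman the value was -0.20 (adjusted p = 0.625). Without Doberman L alone the change was -1.38 (adjusted p = 0.0744 in limma), and the call was also lost without R or without any one of the controls. L's signal of 45.6 was under the filter, which corresponds to 107.7. The change was -3.08 when 1 was added before taking logs and -2.64 when 64 was added, in place of 16.

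Endothelial cells and fat cells also make LPL or CD36, as macrophages do. The 7 measured endothelial markers summed to 15590 to 22800 in Dobermans and 16700 to 21520 in controls. The 3 measured fat cell markers summed to 611 to 847 in Dobermans and 250.0 to 662 in controls. The 12 measured macrophage markers summed to 2762 to 10240 in Dobermans and 2823 to 5290 in controls. Of these, SELP of the endothelium and TYROBP of the macrophages rose in Dobermans against controls and LYZ of the macrophages fell. Over all tested genes 11.9% rose and 14.0% fell. With K alone, the log2 changes of SELP, TYROBP and LYZ were 0.57, 1.15 and -0.42. The 11 measured fibroblast markers summed to 22510 to 40140 in Dobermans and 18380 to 27870 in controls. Of the 10 tested, 3 rose in Dobermans, DCN (1.59-fold), MFAP4 (3.74-fold) and S100A4 (2.86-fold), and of these MFAP4 also passed with K alone, among 3 fibroblast markers that did. The 4 measured markers of smooth muscle and pericytes summed to 14450 to 23440 in Dobermans and 9104 to 19050 in controls. MCAM, 1 of these 4, rose 2.28-fold, beside the same 11.9% of all tested genes. Its log2 change was 1.19, and 0.80 with K alone. None of these markers was at 0, and their part in the results was not tested. In whole tissue, fewer cells of a type and less RNA per cell cannot be told apart.

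ACSL3, an acyl-CoA synthetase of lipid droplets and the endoplasmic reticulum, had 1424, 1210.2 and 1429 in Dobermans K, L and R, 881, 1001, 992 and 912 in Boxers 1 to 4, 861, 798 and 758 in the paced mongrels and 1297, 1059 and 1063 in the controls. The Dobermans overlapped control P1 and lay above every Boxer and every paced mongrel. The change against controls was 0.25 ± 0.16 (95% interval -0.10 to 0.60, adjusted p = 0.251 in limma). It was 0.32 with K alone and -0.19 with arrays centred on their medians. The other ACSL3 probe set, 1588639_at, went the opposite way in the Dobermans. It had 234, 27.1 and 17.3 in the Dobermans, 348, 335, 227 and 346 in the Boxers, 408, 191 and 471 in the paced mongrels and 333, 377 and 407 in the controls, a change of -2.45 ± 0.58 (adjusted p = 0.0138 in limma) in Dobermans against controls. With K alone it was -0.63 (adjusted p = 0.436), and L and R lay far under the filter level. The array annotation gave this probe set no accession. Since the ACSL3 probe sets went opposite ways, the ACSL3 result in Dobermans depends on the probe set that is read.

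MLYCD, the decarboxylase that breaks down malonyl-CoA, had 3426, 4255 and 3329 in Dobermans K, L and R, 5280.3, 4930.1, 5167 and 4761 in Boxers 1 to 4, 3642, 3584 and 2940.1 in the paced mongrels and 7586, 5609 and 5681 in the controls. Each of the 10 diseased or paced samples was below each control. Dobermans and paced mongrels overlapped each other and lay below all Boxers. The change in Dobermans against controls was -0.77 ± 0.17, 1.71-fold lower with an adjusted p of 0.0120 in limma. It was -0.86 (adjusted p = 0.0380) with K as the only Doberman, and of the 3 Dobermans L was the closest to the controls. Without control P1, which had the highest signal, it was -0.63 (adjusted p = 0.0503).

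DECR1, the mitochondrial reductase that lets the double bonds of unsaturated fatty acids pass through beta-oxidation, had 981, 259 and 44.9 in Dobermans K, L and R, 2528, 3139, 2593 and 3199 in Boxers 1 to 4, 2818, 3221 and 2586 in the paced mongrels and 3068, 1877 and 2840.0 in the controls. All Dobermans lay below all 10 other samples, with R lowest, and the other 3 groups overlapped. The change in Dobermans against controls was -3.32 ± 0.66, with an adjusted p of 0.00826 in limma, and -1.36 ± 0.26 (adjusted p = 0.0229) with K as the only Doberman. R's signal of 44.9 was under the filter, and the change was -3.48 when 1 was added before taking logs and -2.97 when 64 was added. All 3 other DECR1 probe sets were also lower in every Doberman than in every control. 1584001_at had 474, 101 and 19.0 in the Dobermans against 815, 709 and 1180.0 in the controls, a change of -2.83 ± 0.63 (adjusted p = 0.0115 in limma). 1584002_s_at had 287, 136 and 17.0 in the Dobermans against 1023, 754 and 960.5 in the controls, a change of -3.00 ± 0.54 (adjusted p = 0.00567 in limma). 1592274_at, from a different source transcript, had 289, 35.6 and 71.8 in the Dobermans against 327, 342 and 367 in the controls, a change of -1.70 ± 0.46 (adjusted p = 0.0210 in limma). With K alone, 1584002_s_at passed at -1.60 (adjusted p = 0.00590 in limma), whereas 1584001_at (-0.87, adjusted p = 0.121) and 1592274_at (-0.24, adjusted p = 0.644) did not. The suffixes _s_ and _x_ mark probe sets whose probes can match other transcripts.

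ACAD9, an acyl-CoA dehydrogenase that is also needed to assemble respiratory complex I, had 2055, 1307 and 2431 in Dobermans K, L and R, 2506, 2478, 2508 and 2628 in Boxers 1 to 4, 1490.1, 1638 and 1655 in the paced mongrels and 2309, 2011 and 2578 in the controls. The paced mongrels lay below all controls and all Boxers, and Doberman L was the lowest of all samples. The difference of Dobermans from controls was -0.29 ± 0.21 (95% interval -0.73 to 0.15, adjusted p = 0.293 in limma). Its second probe set, 1588436_at, ranged from 18.8 to 94.5 over all samples and was not tested.

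ACAT1, the mitochondrial thiolase of acetoacetyl-CoA, used in ketone and isoleucine breakdown, had 3214, 986 and 1670.0 in Dobermans K, L and R, 6838, 7065, 7222 and 8160.2 in Boxers 1 to 4, 7114, 8070.4 and 5534 in the paced mongrels and 7393, 7935 and 6792 in the controls. All Dobermans lay below all 10 other samples, and the other 3 groups overlapped. The change in Dobermans against controls was -2.07 ± 0.31, 4.19-fold lower with an adjusted p of 0.0033 in limma, and -1.19 ± 0.20 (adjusted p = 0.0160) with K as the only Doberman. Probe set 1599365_s_at had 96.7, 15.2 and 34.3 in the Dobermans against 137, 246 and 279 in the controls and changed by -2.02 ± 0.41 (adjusted p = 0.00878 in limma), and with K alone the value was -1.02 (adjusted p = 0.175). Probe set 1605244_at had 229.5, 139 and 385 in the Dobermans against 293, 338 and 341 in the controls, which overlapped, with a change of -0.45 ± 0.41 (adjusted p = 0.408 in limma).

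BDH1, the mitochondrial dehydrogenase that interconverts the main ketone bodies, had 954, 906 and 586 in Dobermans K, L and R, 1060.3, 1178, 1215 and 819 in Boxers 1 to 4, 962, 664 and 893 in the paced mongrels and 3137, 1199 and 1213 in the controls. Control P1 stood well above the other two controls. The Dobermans and the paced mongrels lay below every control. The change in Dobermans against controls was -1.04 ± 0.33, 2.06-fold lower with an adjusted p of 0.0374 in limma. It was -0.59 (adjusted p = 0.137) without P1, and -0.79 (adjusted p = 0.371) with K as the only Doberman. The call was also lost without L, R or Boxer 1, whose adjusted p-values in limma were 0.0723, 0.124 and 0.0507.

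**Figure D2:**
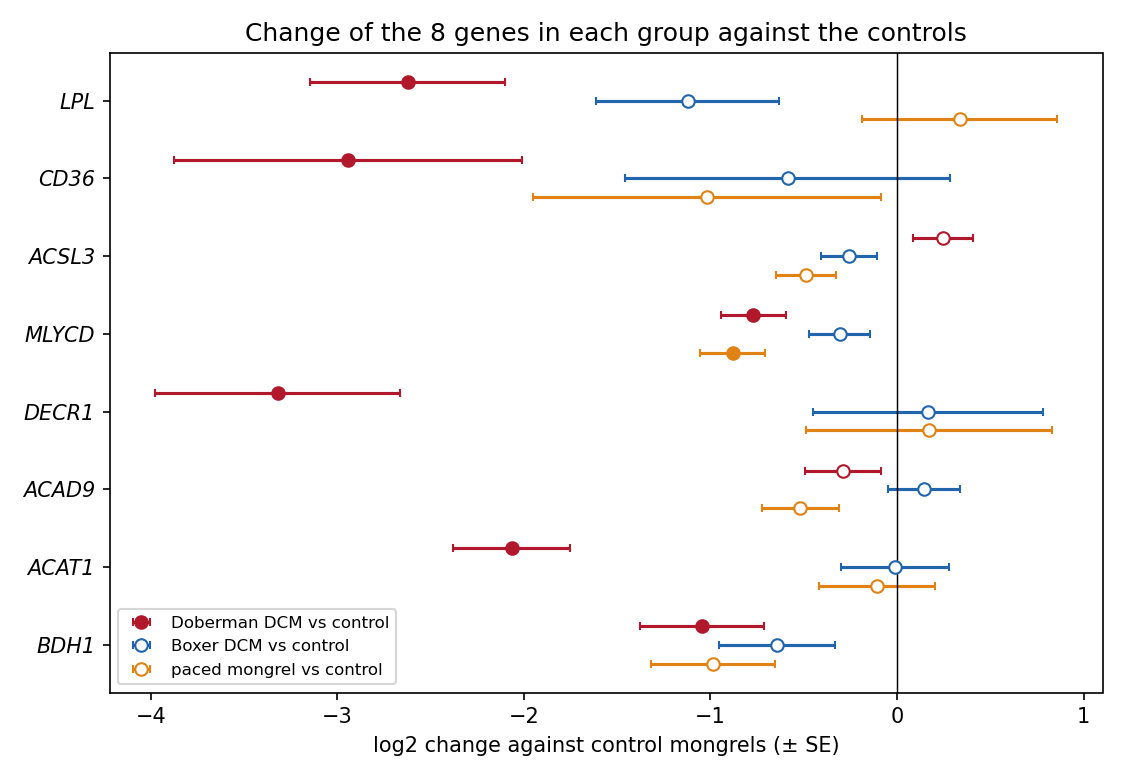
Log2 change (± SE) of each gene in Dobermans, Boxers and paced mongrels against the 3 control mongrels, on the log2(signal + 16) scale, with filled points for an adjusted p under 0.05. Filled points are the Doberman changes of 6 genes, the largest -3.32 for DECR1, and the paced change of MLYCD, -0.88.

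Of the 8 genes, 0 rose in Dobermans against controls. All 6 that fell were lower in every Doberman than in every control. These 6 were picked by calls on the same values. The share of 15.7% for which this held is over all tested genes, called or not, and is thus no like measure. The median change of the 8 genes was -1.56, beside 0.04 over all tested genes. With K as the only Doberman, the 3 falls stood against 2.06% of all tested genes, and the median change of the 8 genes was -0.82, beside 0.02. The calls of DECR1, ACAT1 and LPL held in each of the 13 fits that left out 1 sample, where their changes ran from -4.30 to -2.29, from -2.50 to -1.66 and from -3.26 to -2.22. With the GAPDH ratio as a covariate, which goes largely with the Doberman group, 0 of the 8 passed, beside 0.763% of all tested genes. In a fit of only the Dobermans and controls 0 of the 8 passed, beside 0.153%. At an unadjusted p under 0.05 in limma there were 4 and 6 of the 8.

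**Figure D3:**
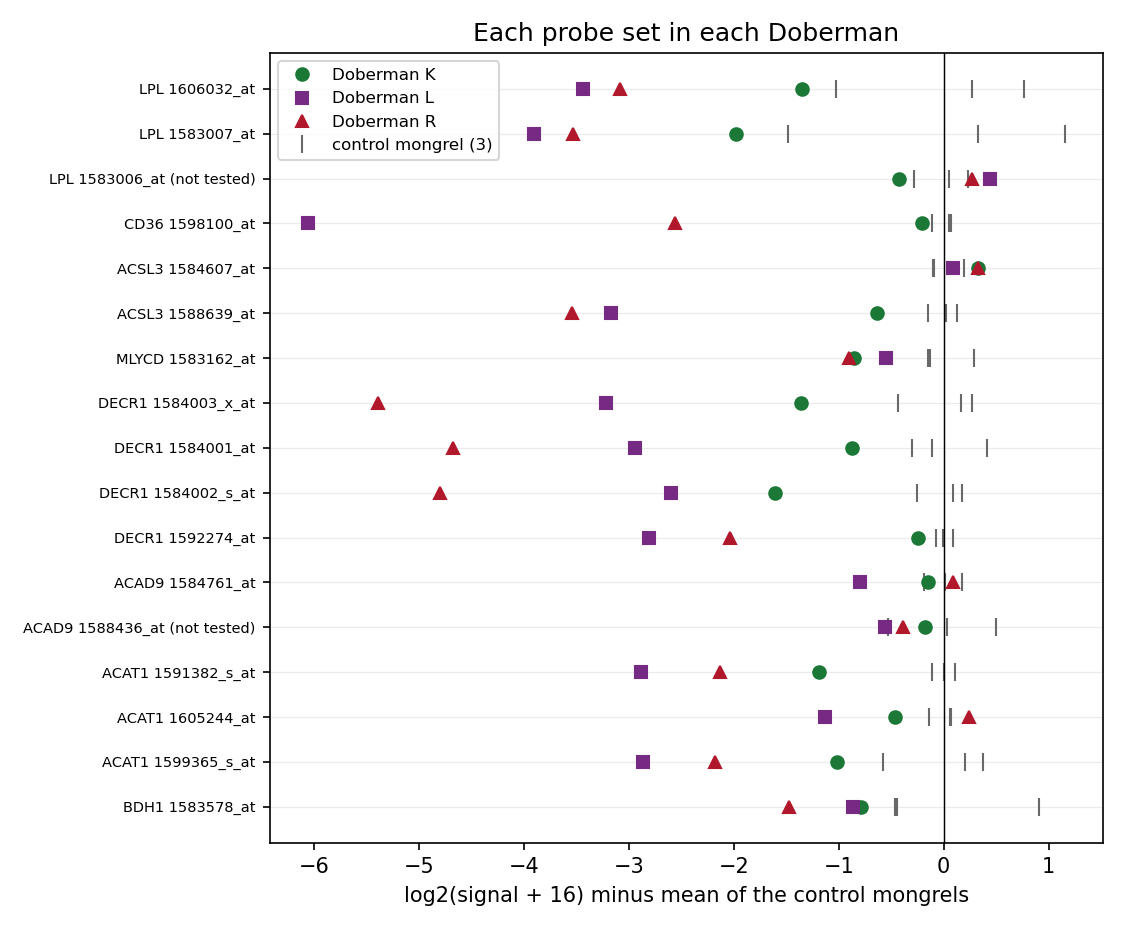
Log2(signal + 16) of each of the 17 probe sets in Dobermans K, L and R, less the mean of the 3 control mongrels, with tick marks for the controls. K lies nearer to the controls than L and R for both tested LPL probe sets, CD36, all 4 DECR1 probe sets and 1591382_s_at and 1599365_s_at of ACAT1, and among the 3 Dobermans L is lowest for CD36 and R for 3 of the 4 DECR1 probe sets.

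In Boxers, 0 of the 8 genes passed the test against controls in limma, and 1, LPL, had an unadjusted p under 0.05. Of all tested genes, 0.0382% fell and 0.0191% rose. The LPL change was -1.12 ± 0.49 (adjusted p = 0.655 in limma), with all 4 Boxers below controls P1 and P9 and around P4. CD36 (-0.58 ± 0.87), MLYCD (-0.31 ± 0.16) and ACSL3 (-0.26 ± 0.15) were lower in each of the 4 Boxers than in each control, which held for 9.79% of all tested genes. The DECR1 change was 0.17 ± 0.62, with a 95% interval of -1.16 to 1.49, and the ACAT1 change was -0.01 ± 0.29. The DECR1 interval is widened by the Dobermans, whose spread enters the pooled error. The DECR1 SD was 2.02 in Dobermans, 0.18 in Boxers and 0.38 in controls. In the fit without Dobermans L and R, which takes no spread from any Doberman here, 0 of the 8 passed, and CD36 came nearest with an adjusted p of 0.0596 in limma.

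In paced mongrels, the MLYCD change against controls was -0.88 ± 0.17, 1.84-fold lower with an adjusted p of 0.00721 in limma, and 5.11% of all tested genes rose in this comparison. MLYCD passed in every alternative fit run on this comparison. CD36 (-1.02 ± 0.93, adjusted p = 0.502), BDH1 (-0.99 ± 0.33, adjusted p = 0.0677), ACAD9 (-0.52 ± 0.21, adjusted p = 0.113) and ACSL3 (-0.49 ± 0.16, adjusted p = 0.0640) did not pass in limma. Each of these 4, like MLYCD, was lower in all 3 paced mongrels than in all 3 controls, which held for 22.4% of all tested genes.

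Calls of these 4 genes changed with the Dobermans in the fit, whose spread enters the pooled error. In the fit that left out Dobermans L and R, 5 of the 8 genes fell in paced mongrels against controls, namely MLYCD, BDH1 (adjusted p = 0.0342), CD36 (adjusted p = 0.000618 in limma), ACAD9 (0.00731) and ACSL3 (0.0156), against 15.7% of all tested genes. Leaving out K alone added BDH1 and ACSL3 to the calls, and leaving out L alone added ACAD9 and ACSL3. Without control P1 the BDH1 change was -0.53. The DECR1 change in paced mongrels was 0.17 ± 0.66 and the LPL change 0.34 ± 0.52, and neither passed. Of the DECR1 probe sets, 1584002_s_at had 1560.1, 1637 and 1706 in the paced mongrels against 1023, 754 and 960.5 in the controls, a change of 0.84 with an adjusted p of 0.00137 in limma without L and R and of 0.324 with them. ACAT1's probe set 1605244_at had 154, 193 and 46.8 in the paced mongrels against 293, 338 and 341 in the controls and fell by 1.38 ± 0.41 (adjusted p = 0.0422 in limma), whereas the ACAT1 probe set of highest signal had -0.11 ± 0.31 and did not pass. The 7 endothelial markers summed to 12600 to 16210 in paced mongrels and 16700 to 21520 in controls, with TEK and ECSCR lower. The 13 measured cardiomyocyte markers summed to 229300 to 258100 in paced mongrels and 262600 to 380800 in controls. Their median log2 change was -0.40, beside -0.50 for the 8 genes and -0.04 over all tested genes. The part of either marker list in the values of CD36 and the other genes was not tested.

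The breeds were compared directly. Against Boxers, 5 of the 8 genes were lower in Dobermans (DECR1, ACAT1, CD36, LPL and MLYCD) and 1, ACSL3, was higher, against 17.3% of all tested genes lower and 16.8% higher. DECR1 differed by -3.49 ± 0.62 (adjusted p = 0.00375 in limma) and ACAT1 by -2.06 ± 0.29 (adjusted p = 0.00204), with no overlap between the breeds. ACSL3 differed by 0.51 ± 0.15 (adjusted p = 0.0221 in limma), with 1210 to 1429 in Dobermans and 881 to 1001 in Boxers, while its probe set 1588639_at differed by -2.20 ± 0.54 (adjusted p = 0.0108), and by -0.38 (adjusted p = 0.609) with K alone. With arrays centred on their medians the ACSL3 difference was -0.00089. MLYCD differed by -0.46 ± 0.16 (adjusted p = 0.0411 in limma) without overlap. CD36 (-2.36 ± 0.87, adjusted p = 0.0490) and LPL (-1.50 ± 0.49, adjusted p = 0.0311) overlapped between the breeds, in each case through K, which was above every Boxer for CD36. With K as the only Doberman, CD36 differed by 0.38 and did not pass, and only DECR1 (-1.52, adjusted p = 0.0144 in limma) and ACAT1 (-1.18, adjusted p = 0.0144) did, 2 of 8 against 1.37% of tested genes lower and 1.07% higher. Of the 13 cardiomyocyte markers, 5 were higher and 2 lower in Dobermans than in Boxers, and 0 passed with K alone; the part of this in the differences was not tested. ACAD9 (-0.43 ± 0.19, adjusted p = 0.0897) and BDH1 (-0.40 ± 0.31, adjusted p = 0.318) did not pass in limma. Leaving out 1 sample ended the CD36 call in 12 of 13 fits, with adjusted p-values in limma up to 0.202, and the ACSL3 call without R or Boxer 1 (up to 0.0593). It ended the LPL call without L, R or Boxer 1, 2 or 3 (adjusted p up to 0.148 in limma) and the MLYCD call without R, LV01, LV02 or any one Boxer (up to 0.110).

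Against paced mongrels, the Dobermans were lower in DECR1 (-3.49 ± 0.66, adjusted p = 0.00313 in limma), ACAT1 (-1.96 ± 0.31, adjusted p = 0.00125) and LPL (-2.96 ± 0.52, adjusted p = 0.00226). They were higher in ACSL3 (0.74 ± 0.16, adjusted p = 0.00683 in limma). ACSL3's probe set 1588639_at was lower instead, at -2.30 ± 0.58 (adjusted p = 0.0127 in limma), and differed by -0.48 with K alone. The 4 of 8 genes called by their probe set of highest signal stand against 11.0% of tested genes lower and 13.5% higher. With K as the only Doberman 4 of 8 also passed, against 6.81% of tested genes lower and 8.13% higher, but not the same 4. DECR1 (-1.53, adjusted p = 0.0035 in limma), ACAT1 (-1.08, adjusted p = 0.00545) and ACSL3 (0.81, adjusted p = 0.0138) kept their calls. The LPL call was lost at -1.69 (adjusted p = 0.0671 in limma), a 3.22-fold lower signal in place of 7.78-fold, while its probe set 1583007_at passed at -2.80 (adjusted p = 0.0270). CD36 was gained with K alone, higher than in paced mongrels by 0.81 (adjusted p = 0.0194 in limma), opposite in sign to the change of -1.92 ± 0.93 with all 3 Dobermans (adjusted p = 0.143). Without K it was -3.29 (adjusted p = 0.00147 in limma). Of the 13 cardiomyocyte markers, 8 were higher and 0 lower in Dobermans than in paced mongrels, and 0 passed with K alone; the part of this in the differences was not tested.

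Boxers were higher than paced mongrels in MLYCD (0.57 ± 0.16, adjusted p = 0.0270 in limma) and ACAD9 (0.66 ± 0.19, adjusted p = 0.0303), 2 of 8 genes against 8.30% of tested genes lower and 5.84% higher. For both genes every Boxer lay above every paced mongrel. The calls were lost in most fits that left out 1 of these 7 samples, with adjusted p-values in limma up to 0.121 for MLYCD and 0.101 for ACAD9. LPL was lower in every Boxer than in every paced mongrel, at -1.46 ± 0.49 (adjusted p = 0.0542 in limma), and its probe set 1583007_at passed at -2.08 ± 0.56 (adjusted p = 0.0207).

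A wider list of 99 genes of fatty acid metabolism, sorted by role, was also chosen with earlier results of these data known. It had 54 tested genes, 46 of them not among the 8. Of these 46 in Dobermans against controls, 16 fell, 1 rose and 29 did not pass, against 14.0% of all tested genes lower and 11.9% higher, with a median change of -0.50 beside 0.04 over all tested genes. With K as the only Doberman, 4 fell and 0 rose, against 2.06% lower and 1.20% higher, with a median of -0.15 beside 0.02. The falls with all 3 Dobermans were most numerous in mitochondrial beta-oxidation, where 7 of 10 fell and 0 rose.

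**Figure D4:**
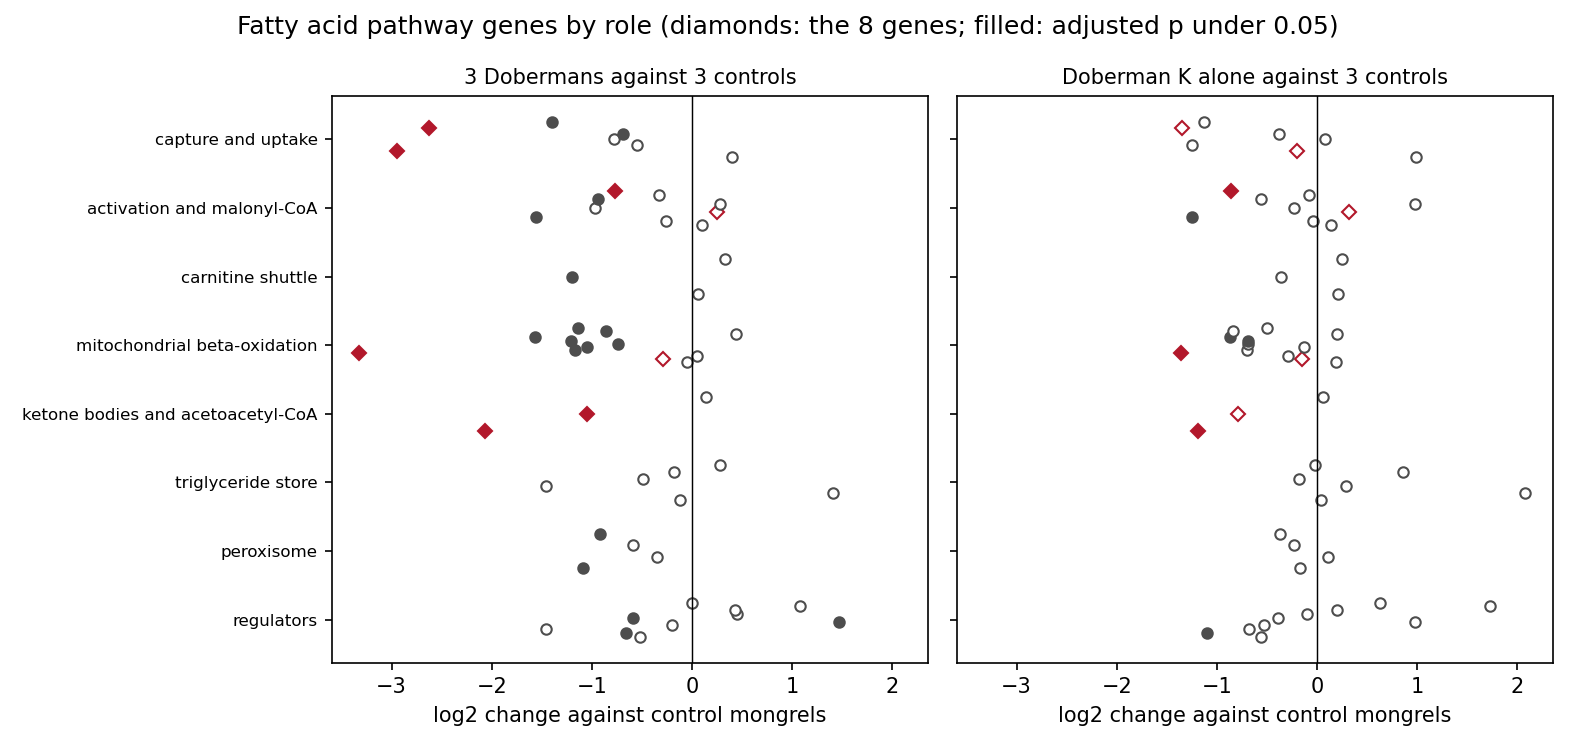
Log2 change of the 54 tested fatty acid genes in Dobermans against controls, grouped by role, with all 3 Dobermans (left) and with K as the only Doberman (right); diamonds are the 8 genes, circles the other 46 and filled symbols have an adjusted p under 0.05. On the left 7 of 10 circles of mitochondrial beta-oxidation are filled, and on the right 2 are, ETFB and ETFDH.

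Among the genes of beta-oxidation, both subunits of the trifunctional protein fell in Dobermans against controls, with changes of -0.86 ± 0.22 for HADHA (adjusted p = 0.0166 in limma) and -1.14 ± 0.24 for HADHB (adjusted p = 0.00972). The enoyl-CoA hydratase ECHS1 changed by -1.17 ± 0.31 (adjusted p = 0.0191 in limma). All 3 genes that pass electrons from acyl-CoA dehydrogenases to the respiratory chain fell, with changes of -0.74 ± 0.16 for ETFA (adjusted p = 0.0112 in limma), -1.21 ± 0.30 for ETFB (adjusted p = 0.0158) and -1.57 ± 0.24 for ETFDH (adjusted p = 0.00338). With K alone, ETFDH (-0.87, adjusted p = 0.0196 in limma) and ETFB (-0.69, adjusted p = 0.0326) still passed, and HADHA, HADHB, ECHS1 and ETFA did not. The medium-chain dehydrogenase ACADM (0.05), the dehydrogenase HADH (0.44) and the thiolase ACAA2 (-0.05) did not pass.

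ACSL1, the main acyl-CoA synthetase of heart muscle, changed by -1.55 ± 0.18 in Dobermans against controls (adjusted p = 0.0015 in limma), and by -1.25 (adjusted p = 0.00884) with K alone. In the carnitine shuttle, CPT2, the inner-membrane carnitine transferase, changed by -1.19 ± 0.29 (adjusted p = 0.0143 in limma), and with K as the only Doberman the value was -0.36 and did not pass, while CPT1A (0.06) did not pass. FABP3, the fatty acid carrier of the muscle cytosol, did not pass, with a log2 difference of -0.55 ± 0.31. Of 6 genes of the triglyceride store, 0 passed in limma, among them the lipase PNPLA2 (0.28) and the droplet protein PLIN2 (-0.18). Of the regulators, PPARGC1A, a coactivator of mitochondrial genes, changed by -0.59 ± 0.20 (adjusted p = 0.0410 in limma), a call lost with K alone (-0.39, adjusted p = 0.399), whereas PPARA (-0.20), PDK4 (-1.46 ± 0.59, adjusted p = 0.0783) and UCP3 (-0.00) did not pass.

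In Boxers 0 of these 46 genes passed against controls in limma, beside 0.0382% of all tested genes lower and 0.0191% higher. Of the 46, 3 had an unadjusted p under 0.05 in limma. In paced mongrels 1 of the 46 passed, as lower, beside 4.04% of all tested genes lower and 5.11% higher. It was GOT2, a mitochondrial aminotransferase also described as a fatty acid binding protein of the membrane. GOT2 changed by -0.81 ± 0.19 (adjusted p = 0.0162 in limma) and is named because it was the only one. In the fit without Dobermans L and R, 11 of the 46 fell in paced mongrels against controls and 2 rose, against 15.7% of all tested genes lower and 12.8% higher. ETFDH (-0.72, adjusted p = 0.000997 in limma) and HADHB (-0.52, adjusted p = 0.00947) were among those that fell, and ETFA rose by 0.51 (adjusted p = 0.0127). The comparisons with controls share the same 3 control samples, so their values are only set side by side.

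The 8 genes did not vary alike. Over the 13 arrays, Pearson's r of log2 values, given as a description of arrays that share the 4 groups, was 0.894 for DECR1 and ACAT1 and 0.853 for ACAT1 and CD36. Over the 10 arrays that are not Doberman it was 0.112 for DECR1 and ACAT1 and 0.127 for ACAT1 and CD36. MLYCD and ACSL3 had 0.182 over 13 arrays and 0.936 over those 10, and BDH1 and MLYCD had 0.807 and 0.791. Among probe sets of 1 gene, the pair of tested LPL probe sets had 0.988 over 13 arrays and 0.979 over the 10, whereas the 6 pairs of DECR1 probe sets had 0.850 to 0.989 and 0.0536 to 0.599. Of the ACAT1 probe sets, 1605244_at had 0.104 with 1591382_s_at and -0.0368 with 1599365_s_at over 13 arrays, whereas these last had 0.914 with each other, and over the 10 arrays the values were 0.715, -0.131 and -0.0799. The 2 ACSL3 probe sets had -0.556 over 13 arrays and 0.0288 over the 10.

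Of all annotated genes, those whose log2 values over the 13 arrays were most like a gene of the 8 were ACTR10 for DECR1 (r = 0.967), PLPP3 for ACAT1 (r = 0.970), RAB5A for CD36 (r = 0.989) and TYMS for LPL (r = 0.921). Over the 10 arrays that are not Doberman, r was 0.400 for DECR1, 0.419 for ACAT1, 0.786 for CD36 and 0.766 for LPL with the same genes. For the other 4 the most alike were GSTA4 for BDH1 (r = 0.826), CPEB4 for MLYCD (r = 0.925), ECSCR for ACAD9 (r = 0.946) and DEPDC5 for ACSL3 (r = 0.917). Without the Dobermans, r was 0.914 for BDH1, 0.935 for MLYCD, 0.924 for ACAD9 and 0.917 for ACSL3.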

How the data were processed

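The deposited values were signal intensities on a linear scale, 1 per probe set and array, made by the authors with MAS5 per the submitters' processing notes (version not given in the sources used here). RNA was extracted with Trizol and RNeasy columns and labelled in 1 cycle, per the labels. No sample column was left unused (0). By the array annotation, 10549 probe sets had a single gene symbol, 138 had several, and no symbol was given for 13149; comparison with RefSeq changed 0. Control probe sets (77) were left out, and values were analysed as log2(signal + 16), so that fold changes of dim genes are understated. Probe sets with a mean under the 40th percentile (6.95 on the log2 scale) were left out.

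Group means over the 13 arrays were estimated together with limma 3.58.1 in R 4.3.3, leaving 9 residual degrees of freedom. The variances were moderated by eBayes with a trend, and p-values were adjusted by Benjamini-Hochberg over the 14302 tested probe sets of each of 6 comparisons, called at 0.05. A gene was read by its tested probe set of highest mean signal. All changes are on the log2(signal + 16) scale with SE. The number of arrays limits the precision. The scripts were tested on data simulated with a spread common to all groups, unlike the wider spread of the Dobermans. Of simulated log2 changes of 1 against controls, 28% were recovered in Dobermans, 37% in Boxers and 31% in paced mongrels. For log2 changes of 2 the shares were 78%, 84% and 83%. A gene that did not pass may thus still differ. The members, the gene lists and the genes named from them were chosen with earlier results of these data known: the 8 genes with all probe sets, a list of named fatty acid genes whatever their result, and the most alike genes by r. Genes of that list not analysed here include GPIHBP1, FABP4, SLC27A1, SLC27A6, ACACB, CPT1B, SLC25A20, ACADVL, ACADS, ECI1, OXCT1 and ESRRA. Of the fits tried as alternatives, the 13 that leave out 1 sample assume, as does that with K as the only Doberman, a spread common to all groups. Plots were made with matplotlib 3.10.9 under Python 3.11.15.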

Additional observations from a re-analysis of the deposited data

Results flagged for a closer look

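In a group of 4 samples, 1 value stood apart from the others by a gap over Dixon's critical share of the group's range for 2 of the 17 probe sets in the Boxers; chance gives about 1 in 20. For ACAD9's probe set 1588436_at the gap was 0.92 of the range, with Boxer 4 at 28.6 and the others at 18.8 to 19.5, all below the filter. For ACSL3's probe set 1588639_at it was 0.907, with Boxer 3 at 227 and the others at 335 to 348.

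The changes against the same controls differed between groups, by the direct test in limma, in 12 instances. Between Dobermans and Boxers the differences were -3.486 for DECR1, -2.056 for ACAT1, -2.358 for CD36, -1.501 for LPL, -0.4621 for MLYCD and 0.5074 for ACSL3. Between Dobermans and paced mongrels they were -3.493 for DECR1, -1.958 for ACAT1, -2.959 for LPL and 0.7357 for ACSL3. In both of these comparisons ACSL3's probe set 1588639_at differed in the opposite direction. Between Boxers and paced mongrels the differences were 0.5743 for MLYCD and 0.6624 for ACAD9.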

How the results depend on the processing

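Of 48 gene and comparison pairs, 19 passed, and 2 of these, MLYCD in paced mongrels against controls and ACAT1 in Dobermans against paced mongrels, did so in every alternative. The number of the 8 genes called moved as follows; the cause was not tested. Leaving out 1 sample gave 3 to 6 of 8 in Dobermans against controls (6 with all samples), 0 in Boxers against controls (0), 1 to 3 in paced mongrels against controls (1), 2 to 6 in Dobermans against Boxers (6), 4 to 5 in Dobermans against paced mongrels (4) and 0 to 3 in Boxers against paced mongrels (2). The lowest count in Dobermans against controls was without P1. With K as the only Doberman the counts were 3 in Dobermans against controls, 5 in paced mongrels against controls, 2 in Dobermans against Boxers, 4 in Dobermans against paced mongrels (LPL lost, CD36 gained as higher) and 4 in Boxers against paced mongrels. Fitting only the compared groups gave 0 in Dobermans against controls and 4 in paced mongrels against controls, beside 0.153% and 21.7% of genes tested. It gave 2 in Dobermans against Boxers and 2 in Dobermans against paced mongrels, beside 13.4% and 3.05%. In Boxers against paced mongrels it gave 4, beside 33.1%. The GAPDH ratio as a covariate gave 0 in Dobermans against controls and 3 in paced mongrels against controls, beside 0.763% and 17.2%. With that covariate there were 0 in Dobermans against Boxers and 2 in Dobermans against paced mongrels, beside 0.420% and 6.43%. These shares are of all tested genes, in either direction. In paced mongrels against controls, median centring gave 4, no filter 3, array weights 4 and any probe set of a gene 2. In Boxers against paced mongrels, quantile normalization gave 0, median centring 4 and a filter at the 70th percentile 0. Over all tested genes, calls in Dobermans against controls numbered 1358, and 171 with K as the only Doberman, 8 with only the compared groups and 40 with the GAPDH covariate; in paced mongrels against controls they numbered 480, and 1492, 1136 and 902. Of the 29 pairs that did not pass, 11 turned in sign in some alternative. Where a value that passed was on one of the 2 sides, signs turned with K as the only Doberman for CD36 against Boxers (0.38) and against paced mongrels (0.81), and with median centring for ACSL3 in Dobermans against Boxers (-0.00089).

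Median centring moved the median of all tested probe sets by -0.44 in Dobermans against controls, -0.51 in paced mongrels against controls, -0.51 in Dobermans against Boxers and 0.58 in Boxers against paced mongrels, and quantile normalization moved it by -0.17, -0.11, -0.20 and 0.12 in these 4 comparisons in that order. The share of calls that were higher was 56.2% in Dobermans against controls, 39.4% after quantile normalization and 14% after median centring; it was 69.4%, 42.3% and 13.5% in paced mongrels against controls, 61.5%, 42.1% and 15.8% in Dobermans against Boxers, and 27.4%, 58.1% and 87.7% in Boxers against paced mongrels, and 53%, 52.3% and 67.2% in Dobermans against paced mongrels. No paired analysis was possible because the names of the samples pair none of them. Signals under the filter, as of CD36 in L and DECR1 in R, limit the sizes of those falls.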

Other observations

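In Dobermans against controls, further genes of the fatty acid lists passed, chosen here after their values were seen. PPARG, a nuclear receptor best known from fat cells, was the 1 gene of these lists that rose, by 1.47 (adjusted p = 0.0073 in limma), and with K as the only Doberman its change was 0.98 (adjusted p = 0.158). VLDLR, a receptor that takes up triglyceride-rich lipoproteins, changed by -1.40 (adjusted p = 0.0118 in limma), a call lost with K alone (-1.13, adjusted p = 0.0574). Of 4 tested peroxisomal genes 2 fell, the multifunctional enzyme HSD17B4 (-0.92) and the transporter ABCD3 (-1.09), beside 14.0% of all tested genes. With K alone neither passed in limma (-0.37, adjusted p = 0.313, and -0.17, adjusted p = 0.751). NCOR1, a corepressor of nuclear receptors, changed by -0.66 with all 3 Dobermans and by -1.10 (adjusted p = 0.0160 in limma) with K alone.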
